A study of Mus musculus with 2 samples.

Results

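The forkhead (Fox) genes encode transcription factors that share a DNA-binding domain of the winged-helix type, and letters in their symbols divide them into subfamilies. Several subfamilies act in most dividing or resting cells, such as the FoxO factors, which growth factor signalling through Akt removes from the nucleus, and FoxM1, which drives genes of G2 and mitosis. Others are known for restricted roles in the embryo, as with the FoxA factors in endoderm and the FoxC factors in the paraxial mesoderm from which skeletal muscle arises. In muscle, the FoxO factors are known for activating atrophy and autophagy genes, and Foxk1 was first described as a myocyte nuclear factor.

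The forkhead genes were taken as all RefSeq entries of the deposited table of gene activity whose symbol is Fox, followed by a letter from A to S, a number and, where present, a further letter. This gave 46 of the 24165 entries, which represent 39 of the 20128 gene symbols. Gene activity had been measured by global run-on sequencing (GRO-seq), in which engaged RNA polymerases extend their transcripts in isolated nuclei in the presence of a bromouridine nucleotide, and the RNA that took it up is purified for sequencing. The 2 replicate libraries came from C2C12 myoblasts, an established mouse cell line, which were grown without any treatment and harvested before confluence. The authors pooled both libraries and listed 1 value for each entry, in reads per kilobase of mappable gene body, scaled to library size (RPKmM). The word Inactive stands where a Poisson comparison with gene deserts missed the false discovery rate of the study, 0.01. Inactive therefore means not separated from that background at this depth, and not that transcription is absent.

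No value per library was used here, so neither the variation between replicates nor a test of any difference could be obtained. The only error that the table itself gives for a value is its rounding to 2 decimals, which is 0.005 to either side, and the table holds no read counts. Ranges given below for ratios therefore cover rounding alone. They leave out counting error, which weighs most on low values of short genes. The activity is a density per kilobase, so levels of different genes can be set side by side. As a check of the label, all 11 entries of 10 myoblast marker genes were active, from 0.55 to 72.45 RPKmM, while 70.2% of all entries in the table were active. The 8 entries of differentiated muscle markers were also all active, from 0.2 to 6.85 with a median of 0.78. Entries of endothelial markers were active in 2 of 5 cases and those of blood cells in 1 of 5, each at 0.01, and epithelial markers in 3 of 5 at up to 0.03. The 11 entries of fibroblast and adipogenic progenitor markers were all active, from 0.01 to 7.06 (Ly6a) with a median of 0.32, and 2 of 8 neural entries were active, of which Tubb3 reached 6.01.

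A total of 25 of the 46 forkhead entries (54.3%) were active, while 70.2% of all entries in the table were. By gene symbol, 23 of the 39 forkhead genes were active, beside 13822 of the 20128 symbols of the whole table. No forkhead gene had both active and inactive entries. The active forkhead entries had a median activity of 0.68 RPKmM with quartiles of 0.19 and 1.35, against a median of 0.87 and quartiles of 0.22 and 1.99 for all active entries. Activities of 1 or above were listed for 9 forkhead entries (19.6%), compared with 32.3% of all entries. The family thus contained strongly and weakly transcribed members, from Foxm1 at 3.4 to Foxd1 and Foxd3 at 0.01, and its highest value lay above 86.9% of all active entries.

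**Figure D1:**
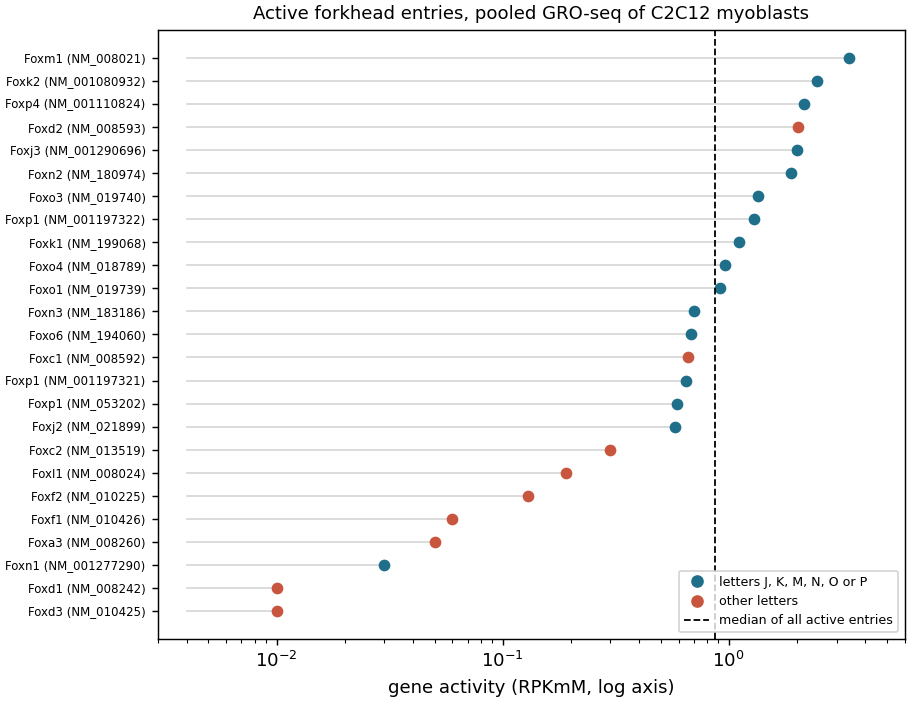
Gene activity of the 25 active forkhead entries in RPKmM on a log axis, 1 row for each RefSeq entry, in order of activity; the 21 inactive entries have no value and are not drawn, and the dashed line is the median of all active entries (0.87). Blue points are subfamilies J, K, M, N, O and P and red points are all others; of the 9 entries at 1 or above, 8 are blue.

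In the plot of active members, 9 entries lay at 1 or above, 8 from 0.58 to 0.96, 3 from 0.13 to 0.3 and 5 from 0.01 to 0.06. Of the 24 neighbouring pairs, 5 differed by 0.01 or less. Foxd1 and Foxd3 had the same listed value, so their order is unknown. The rounding intervals of the others only touch, and these were Foxd2 and Foxj3, Foxc1 and the middle Foxp1 entry, the lowest Foxp1 entry and Foxj2, and Foxf1 and Foxa3. Without values per library, none of these orders can be set against replicate error.

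Subfamilies J, K, M, N, O and P, of which many members are known to be broadly expressed, were compared with all other letters. Of their 22 entries, 16 were active (72.7%, close to the 70.2% of all entries), with a median activity of 1.035 RPKmM and quartiles of 0.673 and 1.92, beside the median of 0.87 for all active entries. Of the 24 entries with other letters, 9 were active (37.5%), with a median of 0.13 and quartiles of 0.05 and 0.3. Among the 17 forkhead entries above 0.5, only Foxd2 and Foxc1 came from the other letters. Both groups overlapped, since Foxn1 at 0.03 lay below most active entries with other letters and Foxd2 at 2.02 above most entries of J, K, M, N, O and P.

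Foxm1 (NM_008021) was the most active forkhead gene at 3.4 RPKmM. On mm9 it lies on the plus strand of chromosome 6 from 128312985 to 128325911 and spans 12.927 kb with 8 exons. Foxk2 (NM_001080932) was second at 2.47, which is 1.38 times lower. Its paralogue Foxk1 (NM_199068), with which it shares a forkhead-associated domain that binds phosphorylated proteins, was listed at 1.11. The activity of Foxk2 was 2.23 times that of Foxk1, and rounding allows a ratio from 2.21 to 2.24. Both FoxK genes were above the median of all active entries.

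All 4 FoxO genes of the table were active, where 70.2% of all entries were, and the highest was 1.99 times the lowest (1.96 to 2.01 given rounding). Foxo3 (NM_019740) was highest at 1.35 RPKmM, Foxo4 (NM_018789) was at 0.96, Foxo1 (NM_019739) at 0.92 and Foxo6 (NM_194060), a member known mainly from brain, at 0.68. Foxo6 was the only FoxO gene below the median of all active entries. Foxo3 and Foxo1, which are the FoxO factors most studied in muscle wasting, had a ratio of 1.47. The FoxO subfamily was the narrowest of those with at least 3 active entries, whereas FoxD covered the range from 0.01 to 2.02.

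The FoxP factors, which carry a zinc finger and leucine zipper beside the forkhead domain and act mainly as repressors, were split between active and inactive genes. Foxp4 (NM_001110824) was listed at 2.16 RPKmM. The 3 entries of Foxp1 were listed at 1.3 (NM_001197322), 0.65 (NM_001197321) and 0.59 (NM_053202), so the highest exceeded the lowest 2.2-fold. The annotation gives Foxp1 a span of 341.195 kb, and entries of different start or end average the polymerase density over different parts of it. Both entries of Foxp2, a factor of the developing brain, and both of Foxp3, which defines regulatory T cells, were inactive. Foxp2 has the longest span of all forkhead genes, 540.629 kb.

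FoxJ and FoxN had active members at very different levels. Foxj3 (NM_001290696), which has been linked to Mef2c in muscle fibres, was at 2.01 RPKmM and Foxj2 (NM_021899) at 0.58, a ratio of 3.47. Foxj1, the master factor of motile cilia, was inactive. Foxn2 (NM_180974) was listed at 1.89 and Foxn3 (NM_183186), a checkpoint suppressor, at 0.7. Foxn1 (NM_001277290), whose loss causes the nude mouse through its role in thymus and hair, was at 0.03, and rounding places Foxn2 from 53.9 to 75.8 times above it. Foxn4, a factor of retinal and spinal interneurons, was inactive.

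Among the remaining letters, Foxd2 (NM_008593) stood apart. It was listed at 2.02 RPKmM, above 75.3% of all active entries, and 3.06 times as high as the next gene of these letters, Foxc1. The other FoxD genes differed from it by over 2 orders of magnitude or were inactive. Foxd1, a factor of kidney stroma, and Foxd3, a factor of neural crest and pluripotent cells, were both at 0.01, and Foxd4 was inactive. Given the rounding, Foxd2 exceeded Foxd1 and Foxd3 by 134-fold to 405-fold. This range leaves out counting error, which is not known for values as low as 0.01 in genes of 2.461 kb (Foxd1) and 2.373 kb (Foxd3). On mm9, Foxd2 occupies 114578885 to 114581503 of chromosome 4, minus strand, and consists of 1 exon of 2.619 kb.

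The FoxC and FoxF genes and Foxl1 lay between 0.06 and 0.66 RPKmM. Foxc1 (NM_008592) was at 0.66 and Foxc2 (NM_013519) at 0.3, both known for somite formation. Foxf2 (NM_010225) was at 0.13 and Foxf1 (NM_010426), known from lateral mesoderm and lung, at 0.06. Foxl1 (NM_008024), a factor of gut mesenchyme, was at 0.19. In both the FoxC and the FoxF subfamily, 1 gene was listed at about 2.2 times the other: 2.2 (2.15 to 2.25 given rounding) for Foxc1 over Foxc2 and 2.17 (1.92 to 2.45) for Foxf2 over Foxf1. Counting error is not part of these ranges.

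The inactive genes outside J, K, M, N, O and P are known for various lineages. Foxa1 and the 3 entries of Foxa2, pioneer factors of endoderm, were inactive, and Foxa3 (NM_008260) was at 0.05 RPKmM. Foxb1 was inactive, as were the 3 FoxI genes, including Foxi1 of the inner ear and kidney. Foxl2, which maintains ovarian identity, Foxq1, Foxr1 and Foxr2 were inactive as well. In total 16 forkhead genes were inactive, 12 of them outside J, K, M, N, O and P. The annotation holds 5 further forkhead genes, Foxb2, Foxe1, Foxe3, Foxh1 and Foxs1, which were not analysed here.

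The forkhead family was then set beside other families of developmental transcription factors. The share of active entries was 59.5% of 42 for Hox genes, 63.6% of 22 for Sox genes and 57.9% of 19 for T-box genes, beside 54.3% for forkhead genes, and all were below 70.2%. By gene symbol, 23 of 39 forkhead, 23 of 38 Hox, 9 of 17 Sox and 8 of 13 T-box genes were active, beside 13822 of 20128 in the whole table. The order of the families thus depends on whether entries or genes are counted. The median activity of active entries was 1.25 RPKmM for Hox, 0.105 for Sox and 0.3 for T-box, against 0.68 for forkhead. The highest forkhead entry was at 3.4, compared with 19.07 for Hox, 10.16 for Sox and 1.58 for T-box. Of the 14 active Sox entries, 6 were listed at 0, which lowers their median.

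**Figure D2:**
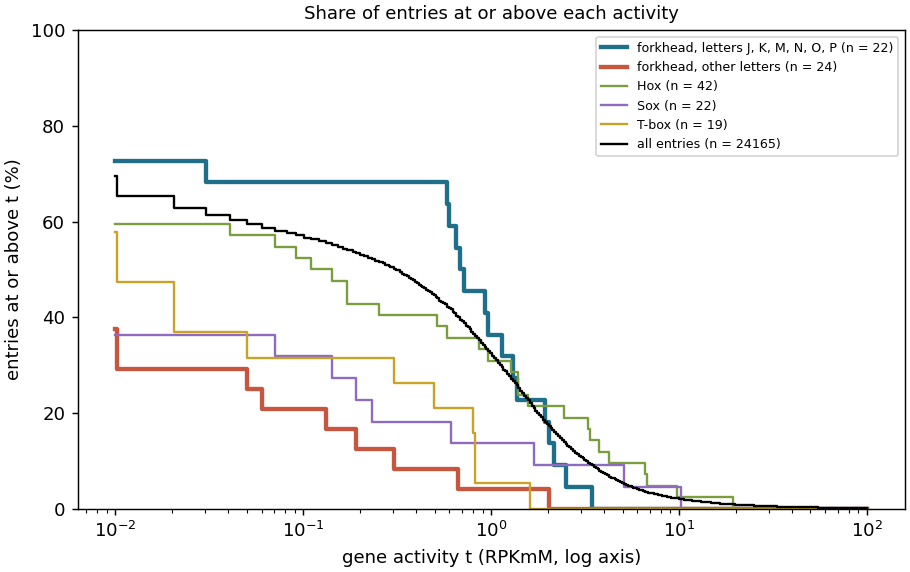
Share of entries (%) with at least a given gene activity in RPKmM (log axis), for the 22 forkhead entries with letters J, K, M, N, O and P, the 24 with other letters, 42 Hox, 22 Sox, 19 T-box and all 24165 entries. The blue forkhead curve starts at 72.7%, loses only Foxn1 below 0.58 and then falls to 0 above 3.4. The red forkhead curve lies below that of all entries throughout, and below that of Hox up to the highest Hox value, 19.07.

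Gene structure differed between the forkhead groups. By the GENCODE vM1 annotation of mm9, genes with letters J, K, M, N, O and P had a median span of 52.113 kb and a median of 9.5 exons, and none had 1 exon. Genes with other letters had a median span of 3.249 kb and a median of 2 exons, and 8 of 21 had 1 exon. In all, 9 of 10 forkhead genes of at least 40 kb were active, Foxp2 being the exception, and the highest entry of each ranged from 0.7 to 2.47 RPKmM. Of 19 forkhead genes under 6 kb, 8 were active, with a median of 0.16. Among the 18653 symbols of the table that matched 1 annotated gene, 76.6% of genes of at least 40 kb and 56.9% of genes under 6 kb were active, and the median activities of active genes were 0.89 and 0.76. Length and letter cannot be told apart here, since all 10 genes of at least 40 kb have the letters J, K, M, N, O or P. From 6 to 40 kb, 5 of 7 genes with these letters and 1 of 3 with other letters were active, beside 71.7% of all genes of that span.

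**Figure D3:**
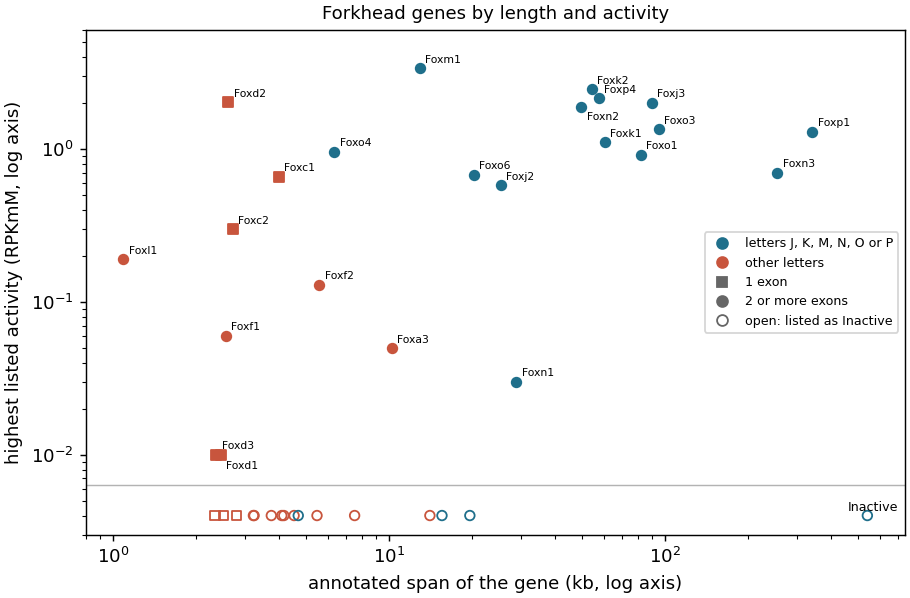
Highest listed activity (RPKmM, log axis) of the 39 forkhead genes against the span of the gene in the annotation (kb, log axis); squares have 1 exon, circles more, and open symbols below the line are genes listed as Inactive. The genes of at least 40 kb lie between 0.7 and 2.47 with the exception of Foxp2, whereas active genes under 6 kb spread from 0.01 to 2.02; Foxl1 is drawn at the annotated 1.09 kb.

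Promoter sequences, taken as the 250 bases before the most upstream start of each gene in the RefSeq annotation of GRCm38.p6, were found for 26 of the 39 forkhead genes. The genes with no sequence used included Foxb1, Foxc2, Foxf1, Foxj1, Foxk1, Foxl1, Foxm1, Foxn2, Foxo4, Foxo6, Foxp2 and Foxq1. CpG dinucleotides, which are dense in the promoters of many broadly expressed genes, had a median of 21 in the 15 active forkhead promoters and of 12 in the 11 inactive ones. Over all genes of the table with such a sequence, the medians were 15 for 10513 active and 4 for 4686 inactive genes. Inactive forkhead promoters thus held more CpG than inactive promoters in general, with 3 of 11 below 5 CpG as against 57.9%. Among the 23 forkhead promoters with 5 or more CpG, 15 belonged to active genes (65.2%), compared with 82.2% of all such promoters. None of the 3 below 5 did, beside 34.3% of all promoters below 5, and 3 promoters are too few to compare with that share.

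The following sequences, read 5′ to 3′ in the direction of transcription and with each CpG in capitals, show this range. They were picked with their values known. Foxk2 (chr11:121259737-121259986, plus strand) has the most CpG of the active forkhead promoters, 48, at an activity of 2.47. Foxd2 (chr4:114908899-114909148, minus strand) has 16 at 2.02, and Foxn3 (chr12:99450075-99450324, minus strand) has the fewest of the active genes, 5 at 0.7. Of the inactive genes, Foxi3 (chr6:70956356-70956605, plus strand) has the most, 24, and Foxr2 (chrX:153118538-153118787, plus strand) has 3, as few as any. All positions are of GRCm38.p6, and the start used by a deposited entry can differ from the one shown.
Foxk2: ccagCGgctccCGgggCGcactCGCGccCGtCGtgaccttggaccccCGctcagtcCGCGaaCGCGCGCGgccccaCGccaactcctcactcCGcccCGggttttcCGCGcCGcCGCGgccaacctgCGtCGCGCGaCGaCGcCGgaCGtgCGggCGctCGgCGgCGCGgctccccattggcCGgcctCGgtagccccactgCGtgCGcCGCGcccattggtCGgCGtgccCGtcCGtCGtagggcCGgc
Foxd2: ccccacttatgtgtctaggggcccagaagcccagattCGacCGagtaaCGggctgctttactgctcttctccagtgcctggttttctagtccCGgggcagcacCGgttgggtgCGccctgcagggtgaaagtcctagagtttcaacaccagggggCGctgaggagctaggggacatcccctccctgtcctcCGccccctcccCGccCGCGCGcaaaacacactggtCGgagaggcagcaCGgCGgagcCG
Foxn3: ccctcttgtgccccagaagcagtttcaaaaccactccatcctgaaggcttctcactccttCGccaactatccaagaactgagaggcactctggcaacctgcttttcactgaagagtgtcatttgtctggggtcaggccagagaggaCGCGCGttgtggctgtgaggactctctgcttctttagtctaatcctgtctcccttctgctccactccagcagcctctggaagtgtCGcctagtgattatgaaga
Foxi3: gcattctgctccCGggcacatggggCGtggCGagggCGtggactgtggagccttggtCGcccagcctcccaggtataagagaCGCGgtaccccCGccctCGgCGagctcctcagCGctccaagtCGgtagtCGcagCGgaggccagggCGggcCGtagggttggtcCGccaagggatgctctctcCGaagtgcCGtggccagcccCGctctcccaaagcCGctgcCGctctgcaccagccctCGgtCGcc
Foxr2: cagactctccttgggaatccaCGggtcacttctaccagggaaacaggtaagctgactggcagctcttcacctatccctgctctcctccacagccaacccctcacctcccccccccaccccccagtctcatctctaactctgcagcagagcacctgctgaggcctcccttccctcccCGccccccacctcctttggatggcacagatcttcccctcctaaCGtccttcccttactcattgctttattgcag

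Side by side, the inactive Foxi3 has more CpG than the active Foxd2 and Foxn3. Foxi3 and Foxn3 were picked as extremes, so their order does not speak for the family. Over all forkhead promoters with a sequence, the active ones had a median of 21 CpG and the inactive ones of 12. The forkhead binding core TGTTTAC, searched on both strands in the same 250 bases, occurred in the promoter of Foxa1 only, or in 3.85% of the forkhead promoters and 2.45% of all promoters. The TATAAA element, also searched on both strands, occurred in 2 of 26, those of Foxa3 and Foxp3, or 7.69%, against 9.32% of all promoters. These letters are matches in a window and show no binding.

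Some forkhead genes neighbour each other, and both groups examined held genes of unequal activity. On chromosome 8, Foxf1, Foxc2 and Foxl1 lie in this order on the plus strand, with 29220 bp between Foxf1 and Foxc2 and 9048 bp between Foxc2 and Foxl1 in the annotation of mm9. Their activities were 0.06, 0.3 and 0.19 RPKmM, so Foxc2 exceeded its upstream neighbour 5-fold (4.54 to 5.55 given rounding) and its downstream neighbour 1.58-fold. On chromosome 13, Foxq1, Foxf2 and Foxc1 lie on the plus strand, 64846 bp and 175243 bp apart, and Foxq1 was inactive, Foxf2 at 0.13 and Foxc1 at 0.66. Foxc1 exceeded Foxf2 5.08-fold (4.85 to 5.32 given rounding). The listed ratio of Foxc2 to Foxf1 in the other group was near this. These ranges leave out counting error, which is not known for such low values in short genes, so how alike the ratios are cannot be judged.

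**Figure D4:**
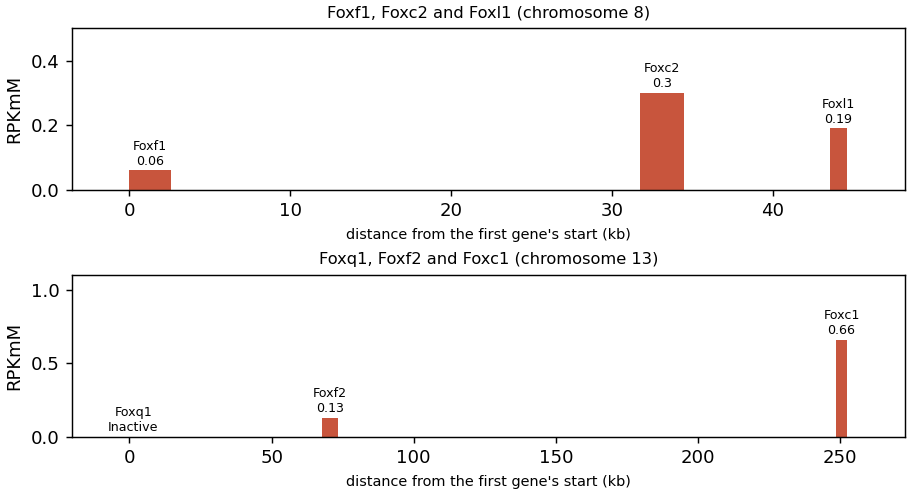
Gene activity (RPKmM, linear axes from 0) of the 2 groups of neighbouring forkhead genes, plotted against distance from the start of the first gene in kb; the width of a bar is the annotated span. In both groups the FoxC gene is highest, at 0.3 and 0.66, and the listed value of the FoxF gene is about 5 times lower, with counting error not known.

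Other genes close to forkhead genes were read from the same annotation, and those named here were picked with their values known. Foxm1 starts 56 bp from Rhno1 on the opposite strand, whose 3 entries lay from 1.03 to 1.05 RPKmM against 3.4 for Foxm1. Foxd2 has the noncoding Foxd2os on the opposite strand 359 bp upstream, at 1.01 against 2.02. Foxl2 and Foxl2os, 297 bp apart, were both inactive. Fendrr, a noncoding gene 1354 bp upstream of Foxf1 on the opposite strand, was inactive in both entries, while Foxf1 was at 0.06. Such neighbours did not always resemble each other, as AA415398 at 0.07 lies 531 bp from Foxj3 at 2.01, and Sympk at 1.04 lies 839 bp from Foxa3 at 0.05.

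A gene on the same strand overlapped 3 of the 23 active forkhead genes in the annotation, so that reads of the shared part can be counted for both. These were Narf at 1.41 with Foxk2, Eif4e3 at 0.34 with Foxp1 and 4933413G19Rik at 0.18 with Foxm1, each lower than the forkhead gene. Their part in the forkhead values was not tested. The remaining symbols of the table that begin with Fox do not encode forkhead factors. Foxred1 and Foxred2, which encode flavin-dependent oxidoreductases, were at 1.19 and 0.1.

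Genes that act with the forkhead factors were examined as lists. All 31 known regulators of FoxO were active, with 44 entries at a median of 2.09 RPKmM. Of these entries, 36 (81.8%) were at 1 or above, compared with 32.3% of all entries in the table. The highest were the 14-3-3 genes Ywhae, at 20.04, and Ywhaz, at 18.35 in 2 entries, whose proteins hold phosphorylated FoxO in the cytoplasm. The lowest entries were 1 of 6 of the kinase gene Sgk1 and 1 of Sgk3, both at 0.12, and Prkaa2 at 0.14, while the other Sgk1 entries ranged from 0.71 to 2.97. Of 22 FoxO target genes, 21 were active, with a median of 1.36 over 25 active entries. Gadd45a, a growth arrest gene, was highest at 46.87, followed by Cited2 at 13 and Sod2, the mitochondrial superoxide dismutase, at 6.25. The atrophy ligase gene Trim63 was the lowest active target at 0.03, and Klf15 was inactive. The 4 FoxO genes lay at or below 1.35, and so below both medians, though Foxo3 was within 0.01 of that of the targets.

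The 18 FoxM1 target genes, which act in G2 and mitosis, were all active, with a median of 4.67 RPKmM over 20 entries. Top2a was highest at 21.3, followed by Birc5 at 20 and the kinase gene Cdk1 at 10.28, and the lowest were Cks1b at 0.44, Cdc25c at 1.07 and Cdc20 at 1.6. Foxm1 itself, at 3.4, lay within their quartiles of 1.913 and 6.705. The 9 FoxK partner genes were all active, with a median of 1.47 over 11 entries between Foxk1 and Foxk2, and Asxl1 was highest at 7.01. The 9 FoxP partner genes were all active, with a median of 1.585. Among these, Chd4, a nucleosome remodeller, was highest at 26.03, and the 4 entries of Nfatc2 were lowest at 0.03 to 0.04. These shares of active genes stand beside 70.2% of all entries, and the lists consist mainly of genes known to be widely expressed.

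**Figure D5:**
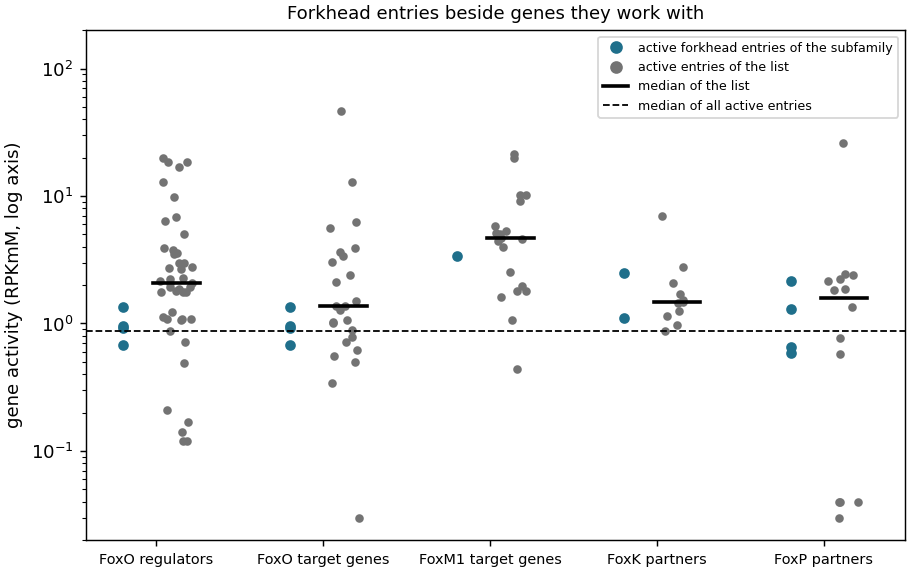
Gene activity (RPKmM, log axis) of active entries in 5 lists of genes that act with forkhead factors (grey, black bar at the median), beside the active forkhead entries of the subfamily concerned (blue); the dashed line is the median of all active entries, 0.87. The FoxM1 targets have the highest median, 4.67, and Foxm1 at 3.4 lies below it, whereas the 4 FoxO genes from 0.68 to 1.35 lie below the medians of FoxO regulators and targets.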

How the data were processed

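GRO-seq libraries were made in 2 replicates from untreated C2C12 myoblasts. Per the methods and the submitters' processing notes (CASAVA 1.8, Bowtie2), the authors mapped reads to mm9, with repeated rounds of trimming and realignment for reads that did not qualify, retained unique alignments outside rRNA and tRNA repeats and pooled the replicates. The deposited values are RPKM over mappable bases (RPKmM), for sense reads from 1 kb downstream of the start to the transcript end, rounded to 2 decimals, with the word Inactive in place of a number for 7208 entries. Mappable bases correct for repeats, pooling hides the variation between libraries, and rounding limits values near 0.01. Whole reads cannot be recovered from rounded densities, so no depth was derived from the table.

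Entries were counted and summarised by medians and quartiles with Python 3.11.15, numpy 2.4.6, pandas 2.3.3 and matplotlib 3.10.9, and the summaries were tested on simulated data. No test was run, as each entry has 1 value. Spans, exon numbers (the transcript with most exons) and neighbours within 500 kb (forkhead) or 15 kb (others) came from GENCODE vM1 of NCBIM37, the same build as mm9, in which Foxf1 is named Foxf1a and Foxl1 a pseudogene. Promoter sequences are RefSeq GRCm38.p6. All forkhead genes were named except 1, which enters the counts but is not reported here, and from each list the 3 highest and 3 lowest entries and inactive genes could be. Neighbouring genes fall outside this rule and were picked with their values known. Members and lists were chosen with earlier results of these data known. The marker genes Mymx, Cd68 and Cldn4 were not analysed here, and Mymk and Emr1 entered as Tmem8c and Adgre1. Alternatives were 1 entry per symbol, thresholds of 0.01 and 0.05, geometric means with pseudocounts of 0.01 and 0.001, coding entries only and, added after seeing the data, genes of at least 6 kb.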

Additional observations from a re-analysis of the deposited data

How the results depend on the processing

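Across 46 values under alternative settings, 43 stayed within 1.5 times the reported value, and 21 of these equalled it. Many of the equal values were fixed in advance. All forkhead entries have coding identifiers and the lowest active value is 0.01, so neither the coding setting nor the threshold of 0.01 could change anything. With the geometric mean and a pseudocount of 0.001, the centre of the active forkhead entries fell from 0.68 to 0.443 RPKmM, because the low entries weigh more on a log scale. With genes of at least 6 kb only, a setting chosen after seeing the data, 1 entry with other letters was active in place of 9, and their median was 0.05 in place of 0.13, because only 3 genes with these letters are that long. Over all letters, 17 forkhead entries were then active. Their median was 0.96 in place of 0.68, and so above the 0.87 of all active entries of any length. The lower forkhead median thus depends on the short genes. With 1 entry per gene symbol, 23 forkhead genes were active, and with a threshold of 0.05 there were 22 active entries. No paired analysis was possible because the deposited table holds 1 pooled value for each entry and the study has 1 group, and for the same reason no replicate could be left out. Rounding leaves equal values at 0.01 without an order. Depth limits the call of activity, since Inactive is no measurement of absence. It also limits how precise the low listed values are, which could not be given without read counts.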
